A study of Homo sapiens with 6 samples.

Results

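A set of 10 genes of the actin cytoskeleton that are widely used as transcriptional targets of SRF (serum response factor) and its MRTF cofactors were examined after silencing of the lncRNA NEAT1. The genes were ACTA2, TAGLN, CNN1, TPM1, CALD1, MYL9, MYH9, ACTN1, VCL and FLNA, listed by symbol, and they were 10 of the 25545 genes in the expression table. RNA-seq was performed on BT-549 cells, an established line from a triple-negative breast cancer, which were transfected with a control siRNA (CsiRNA) or with an siRNA directed at NEAT1 (NEAT1siRNA) and collected 48 h later. Each group held 3 libraries from cultures of the same line, all libraries carried a tet prefix in their titles and shared the medium with serum and insulin, and the design asked which transcripts changed when NEAT1 was silenced. A single siRNA is named per group, and its sequence is not given in the sources used here. The labels do not say whether the cultures were independent experiments, so the p-values measure the spread between these libraries, which may be technical. In a bulk culture, fewer cells that express a gene and less RNA of it per cell cannot be told apart.

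SRF is a DNA-binding protein that sits on a short element called the CArG box in the promoters and introns of its targets. The MRTF cofactors are held in the cytoplasm by binding to actin monomers, and they enter the nucleus and act with SRF when signalling from adhesions and receptors drives monomers into filaments, so that the genes for actin, myosin and adhesion proteins follow the state of the cytoskeleton. In smooth muscle the same targets build the contractile apparatus, and in mesenchymal and invasive cancer cells they supply stress fibres, focal adhesions and cortical tension.

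The CArG box consists of CC, then 6 bases that are A or T, then GG, and reads the same way on both strands. RefSeq promoters of GRCh38.p14, taken from 250 bases before to 50 bases after each annotated start, were matched by symbol for 8 of the 10 genes, with 15 promoters between them, and TAGLN and MYL9 had no entry. An exact box was found in 2 of these 15 promoters (13.3%), those of FLNA and ACTN1, against 1.29% of the 35116 promoters in the table. With at most 1 mismatch allowed, 5 of the 15 promoters held a match (33.3%), against 18.9% of all promoters. FLNA and ACTN1 were lower in NEAT1siRNA cells and ACTA2 was not. However, CALD1, also lower, had near matches only, and VCL and MYH9, also lower, had no match with at most 1 mismatch. The windows below show the exact boxes of FLNA and ACTN1 and a pair of near matches in ACTA2. For comparison they also show the exact boxes of SRF itself and of ACTG1, the cytoplasmic gamma-actin. Each is written 5′ to 3′ on the strand of the gene, with the 10 letters of the box or near match in capitals.
FLNA, chrX:154374709-154374738, minus strand, exact, box beginning 94 bases before the start: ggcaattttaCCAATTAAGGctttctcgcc
ACTN1, chr14:68977718-68977747, minus strand, exact, 171 bases before the start: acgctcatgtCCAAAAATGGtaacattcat
ACTA2, chr10:88952875-88952904, minus strand, 1 mismatch, 121 bases before the start: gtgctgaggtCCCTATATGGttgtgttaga
ACTA2, chr10:88952825-88952854, minus strand, 1 mismatch, 71 bases before the start: tgtctttgctCCTTGTTTGGgaagcaagtg
SRF, chr6:43171229-43171258, plus strand, exact, 30 bases before the start: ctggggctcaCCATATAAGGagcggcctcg
SRF, chr6:43171249-43171278, plus strand, exact, 10 bases before the start: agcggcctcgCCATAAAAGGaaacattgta
ACTG1, chr17:81512874-81512903, minus strand, exact, 94 bases before the start: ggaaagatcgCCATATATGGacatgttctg
A match describes letters within these windows only, and the window does not cover introns or distal elements. Among the other 80 genes of the SRF and MRTF pathway considered here, 71 had a promoter entry, and 17 of their 136 promoters (12.5%) held an exact box. These promoters belonged to 15 genes, and SMTN was the only one of them called lower (adjusted p = 0.0371, limma). SRF and ACTG1, shown above, did not pass (adjusted p = 0.368 and 0.293, limma). Of all genes tested, 8.98% were lower. A link between a box and a change in level was not tested.

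NEAT1 itself, the silenced transcript, was at 13.4, 7.68 and 10.8 TPM (transcript abundance per gene, scaled to the same total in each library) in the CsiRNA libraries and at 4.36, 2.96 and 2.73 TPM in the NEAT1siRNA libraries. All 3 NEAT1siRNA values lay below the CsiRNA range, and the mean was 31.5% of the control mean (log2 fold change -1.41, SE 0.14, adjusted p = 1.21e-07, limma). The values are per gene, so the isoforms NEAT1_1 and NEAT1_2 are not resolved here. From 15788731 to 20342068 reads per library could be recovered from the table, and 64.4 to 68.1% of all TPM belonged to 4 short noncoding RNAs (RN7SK, RN7SL1, RN7SL2 and RPPH1) that took 2.30 to 3.01% of reads. NEAT1siRNA replicates 1 and 2 stood apart from each other in base composition, with rank correlations across genes between the deviation of a gene from its mean and its GC content of 0.68 and -0.73, and CsiRNA replicate 3 was at 0.47. Mesenchymal markers (VIM, FN1, CDH2 and SPARC) summed to 1477 to 1668 TPM in CsiRNA and 1350 to 1568 TPM in NEAT1siRNA libraries. Smooth muscle markers (MYH11, DES, LMOD1, ACTG2 and MYOCD) summed to 0.0123 to 0.0653 and 0.0276 to 0.0535 TPM with ACTG2 at 0 in all libraries, so the genes described here were measured in cells without a smooth muscle profile. Luminal markers summed to at most 0.198 TPM, leukocyte markers to at most 0.381 TPM and endothelial markers to at most 0.0125 TPM, with ESR1, CD3E, VWF and CDH5 at 0 throughout.

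The 10 genes did not move together. Of the 9 with a mean of at least 1 TPM, which were tested, 5 were lower in NEAT1siRNA cells (VCL, ACTN1, FLNA, MYH9 and CALD1) and 1 was higher (MYL9) at an adjusted p under 0.05 in limma. TPM1, TAGLN and ACTA2 did not pass, and CNN1 was too low to test. Across all 10721 genes tested, 963 (8.98%) were lower and 535 (4.99%) were higher. The median log2 fold change of the 9 genes was -0.36, against -0.04 over all genes tested. The genes were chosen with earlier results of these data known, so these contrasts with all genes are descriptions and not tests. By position alone, 4 of the 9 had all NEAT1siRNA values below the CsiRNA range, where 19.3% of all genes did, and 3 had all values above it, where 11.0% of all genes did. The split of calls over all genes moved with the scaling, to 1109 lower and 1082 higher after quantile normalization and to 954 lower and 1158 higher when each library was centred on its median, and under both of these the same 5 of the 9 stayed lower while ACTA2 and TAGLN joined MYL9 among the higher. Both libraries that stood apart in GC content touched few of these calls, since 5 genes were lower without NEAT1siRNA replicate 2 and 4 without NEAT1siRNA replicate 1. Without CsiRNA replicate 1, or without NEAT1siRNA replicate 3, only VCL and ACTN1 passed as lower.

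**Figure D1:**
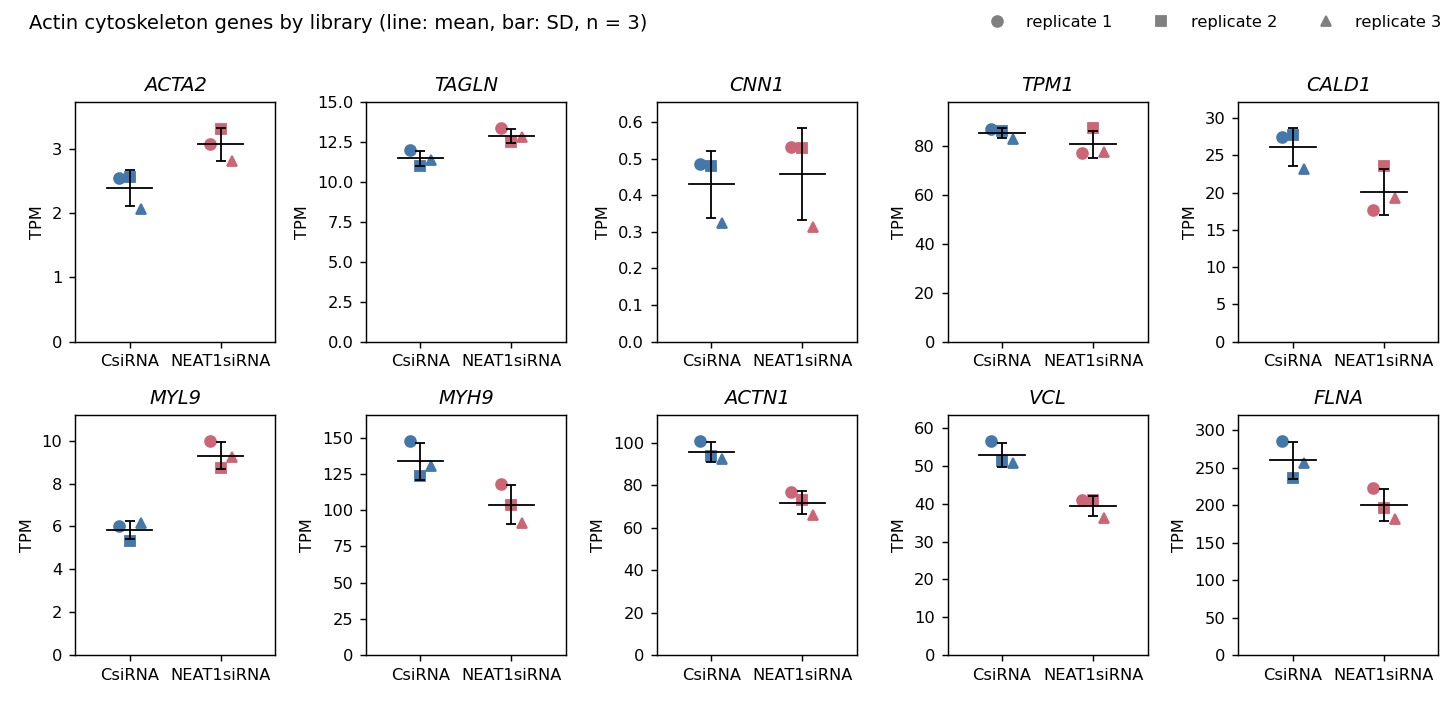
Level of each of the 10 genes in TPM (vertical axes, each starting at 0) in the 3 CsiRNA and 3 NEAT1siRNA libraries, with points for libraries, a line at the group mean and a bar of 1 SD. ACTN1, VCL, FLNA and MYH9 sit wholly below the control range, MYL9, ACTA2 and TAGLN wholly above it, and CNN1, TPM1 and CALD1 overlap.

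All 3 genes for proteins that crosslink actin and tie it to adhesions were lower in every NEAT1siRNA library than in any CsiRNA library. Of all genes tested, 19.3% were placed in this way. FLNA (chrX:154348524-154374634, minus strand) encodes filamin A, which crosslinks filaments into networks and anchors them to membrane receptors, and it was the most abundant of the 10. It was at 286, 236 and 257 TPM in CsiRNA and at 223, 196 and 181 TPM in NEAT1siRNA libraries. The mean went from 260 ± 25.1 to 200 ± 21.5 TPM (mean ± SD of 3 libraries per group, as for all genes that follow). The log2 fold change was -0.38 (SE 0.09, adjusted p = 0.00777, limma), on 32315 to 56290 reads per library. The gap between the groups was narrow for FLNA, from 223 in the highest NEAT1siRNA library to 236 in the lowest CsiRNA library, and the call was lost without CsiRNA replicate 1 (adjusted p = 0.0912, limma) or NEAT1siRNA replicate 3 (0.0814).

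ACTN1 (chr14:68874128-68979440, minus strand), the alpha-actinin that bundles filaments in stress fibres and at adhesions, was at 101, 93.7 and 92.4 TPM in CsiRNA and at 76.7, 72.9 and 66.2 TPM in NEAT1siRNA libraries. Its groups were far apart relative to the spread within them, at 95.7 ± 4.63 and 71.9 ± 5.31 TPM (log2 fold change -0.41, SE 0.09, adjusted p = 0.00278, limma). VCL (chr10:73995193-74121363, plus strand) encodes vinculin, which links talin and the cadherin complex to actin under load. It was at 56.7, 51.3 and 50.9 TPM in CsiRNA and at 41.0, 41.0 and 36.4 TPM in NEAT1siRNA libraries, or 53.0 ± 3.24 against 39.5 ± 2.66 TPM (log2 fold change -0.42, SE 0.09, adjusted p = 0.00290, limma). ACTN1 and VCL kept an adjusted p under 0.05 without any 1 of the 6 libraries and under each other way of scaling or filtering tried, with log2 fold changes from -0.46 to -0.33 and from -0.44 to -0.33. Neither reached a log2 change of 0.5 in size.

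The myosin II pair split. MYH9 (chr22:36281280-36388010, minus strand), the heavy chain of nonmuscle myosin IIA, the motor that pulls on stress fibres, was at 148, 124 and 131 TPM in CsiRNA and at 118, 104 and 91.0 TPM in NEAT1siRNA libraries. MYL9 (chr20:36541497-36551447, plus strand), a regulatory light chain whose phosphorylation switches the motor on, was at 6.01, 5.33 and 6.15 TPM in CsiRNA and at 9.99, 8.71 and 9.22 TPM in NEAT1siRNA libraries. MYH9 was thus lower in each NEAT1siRNA library than in any control, by the small margin of 118 against 124 TPM, whereas MYL9 was higher in each by a gap wider than the spread of either group. The means of MYH9 were 134 ± 12.7 and 104 ± 13.3 TPM (log2 fold change -0.37, SE 0.10, adjusted p = 0.0124, limma), and those of MYL9 were 5.83 ± 0.440 and 9.31 ± 0.647 TPM (log2 fold change 0.59, SE 0.10, adjusted p = 0.000118, limma). MYL9 had the largest fold change in size of the 9 genes tested, although it rested on only 106 to 211 reads per library, and it passed under every scaling, filter and left-out library tried, with log2 fold changes from 0.54 to 0.71. MYH9 lost its call without CsiRNA replicate 1 (adjusted p = 0.119, limma) or NEAT1siRNA replicate 3 (0.127).

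Of the genes for the filament itself and its side-binding proteins, 4 were tested and 1 was lower. CALD1 (chr7:134744252-134970729, plus strand) encodes caldesmon, which binds filaments and restrains myosin. It was at 27.4, 27.7 and 23.1 TPM in CsiRNA and at 17.6, 23.5 and 19.3 TPM in NEAT1siRNA libraries, a mean of 26.1 ± 2.59 against 20.1 ± 3.05 TPM (log2 fold change -0.36, SE 0.10, adjusted p = 0.0215, limma). The groups overlapped, since NEAT1siRNA replicate 2 was above CsiRNA replicate 3. CALD1 had the lowest GC content of the 10 genes (41.3%), and NEAT1siRNA replicate 2 was the library in which genes of low GC content ran highest. With the GC and length trends of each library removed, the log2 fold change was -0.34 (adjusted p = 0.00323, limma). That fit called 1764 of all genes lower, against 963 in the main fit. CALD1 was the least stable of the 5 lower calls, lost without CsiRNA replicate 1 (0.109), CsiRNA replicate 2 (0.0703), NEAT1siRNA replicate 1 (0.0932) or NEAT1siRNA replicate 3 (0.0947).

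TPM1 (chr15:63042620-63071915, plus strand), a tropomyosin that lies along the filament and sets which proteins can bind it, was at 86.8, 86.0 and 82.8 TPM in CsiRNA and at 77.0, 87.0 and 77.6 TPM in NEAT1siRNA libraries. NEAT1siRNA replicate 2 was the highest of the 6 and the groups overlapped, and the difference was within the spread between libraries (85.2 ± 2.09 against 80.5 ± 5.62 TPM, log2 fold change -0.08, SE 0.09, adjusted p = 0.596, limma). Its many isoforms were summed in the table and are not resolved here.

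The 3 genes most often used as markers of the smooth muscle or myofibroblast state, ACTA2, TAGLN and CNN1, were the lowest of the 10 together with MYL9. ACTA2 (chr10:88935074-88991339, minus strand), smooth muscle alpha-actin, was at 2.54, 2.56 and 2.06 TPM in CsiRNA and at 3.08, 3.31 and 2.81 TPM in NEAT1siRNA libraries. TAGLN (chr11:117199370-117207464, plus strand), transgelin or SM22, which bundles filaments, was at 12.0, 11.0 and 11.4 TPM in CsiRNA and at 13.4, 12.5 and 12.8 TPM in NEAT1siRNA libraries. For both genes every NEAT1siRNA value lay above the CsiRNA range, but neither passed the test. The log2 fold change was 0.26 for ACTA2 (SE 0.10, adjusted p = 0.0767, limma, 89 to 132 reads per library) and 0.16 for TAGLN (SE 0.09, adjusted p = 0.281, limma). ACTA2 passed as higher in 6 of the other fits and TAGLN in 5, among them those that removed the GC and length trends (log2 fold change 0.32, adjusted p = 0.00462, and 0.23, adjusted p = 0.00285, limma). With these trends removed, however, 1703 of all 10424 genes tested were called higher, against 535 in the main fit. CNN1 (chr19:11538767-11550323, plus strand), calponin, which damps myosin activity in smooth muscle, stayed between 0.313 and 0.532 TPM in all 6 libraries on 11 to 21 reads, and its groups overlapped. At this depth a moderate difference in CNN1 was not detectable.

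Shared sequence and overlapping genes set a further limit on ACTA2 and TAGLN. ACTA2 at about 2.73 TPM shares exact stretches of up to 32 bases with ACTB, the cytoplasmic beta-actin, which was at 5803 TPM. The level of ACTA2 is uncertain if reads could be split between the actin genes. Whether they could depends on the read length, which is not given in the sources used here. TAGLN lies opposite PCSK7, with 2233 exon bases in common, and PCSK7 was at 5.79 TPM. The libraries were stranded, but whether the counting used strand is not given in the sources used here. TAGLN also shares 2498 exon bases with an annotated gene on its own strand, ENSG00000280143, which has no measured level here and which strand does not separate. ACTA2 also overlaps its antisense transcript ACTA2-AS1 over 516 exon bases, at a mean of 0.0837 TPM. Of the other pairs, the longest shared exact stretch was 73 bases, between ACTN1 and ACTN4. The part of shared reads in any of the differences was not tested.

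In TPM, which accounts for transcript length, the order of the levels over all 6 libraries was FLNA (230), MYH9 (119), ACTN1 (83.8), TPM1 (82.9), VCL (46.2), CALD1 (23.1), TAGLN (12.2), MYL9 (7.57), ACTA2 (2.73) and CNN1 (0.444). ACTN1 and TPM1 were not distinguishable in this order, since their ranges over the libraries overlapped (66.2 to 101 and 77.0 to 87.0 TPM), and in CsiRNA libraries ACTN1 was above TPM1 while in NEAT1siRNA libraries it was below. The 4 most abundant genes other than TPM1 were all among those that fell, and the 3 genes with all values above the control range were at or below 13.4 TPM in every library. Across the 9 genes tested, the rank correlation of the log2 fold change with mean TPM was -0.73 and with transcript length -0.62, given as descriptions only, because all points share the same 6 libraries and the pseudocount of 1 TPM shrinks changes of low genes. Summed over the 10 genes, the level was 727, 637 and 658 TPM in CsiRNA and 580, 549 and 497 TPM in NEAT1siRNA libraries, with FLNA alone making 35.7 to 39.3% of the sum.

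**Figure D2:**
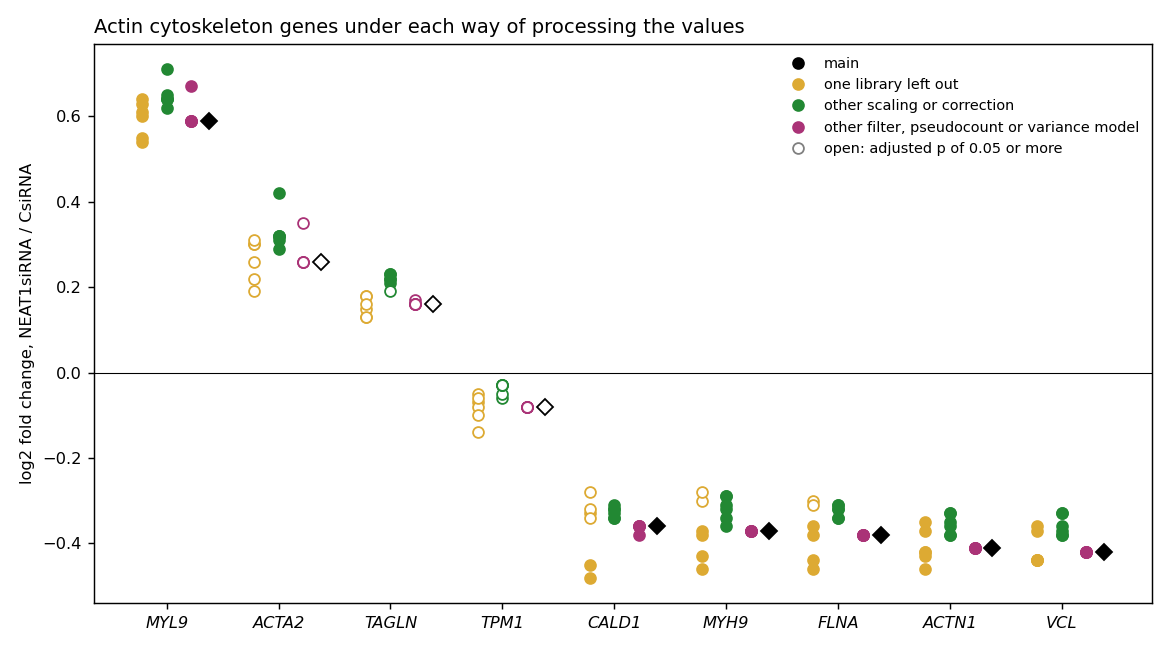
Log2 fold change of NEAT1siRNA over CsiRNA (vertical axis) for the 9 tested genes under the main fit and each alternative fit, with filled marks for an adjusted p under 0.05 and open marks for 0.05 or more. No gene changed direction, VCL, ACTN1 and MYL9 are filled throughout, and CALD1, MYH9 and FLNA have open marks when some libraries are left out.

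For 7 of the genes the level was also set against a paralog within the same library, a ratio that does not depend on how libraries were scaled. MYL9 per 100 transcripts of MYL12A, the main nonmuscle regulatory light chain here, was 2.10, 1.88 and 2.38 in CsiRNA and 4.60, 3.49 and 4.35 in NEAT1siRNA libraries. MYL12A itself was lower (276 ± 15.0 to 226 ± 20.4 TPM, log2 fold change -0.29, adjusted p = 0.0278, limma), so MYL9 and MYL12A moved in opposite directions. The adjusted p of MYL12A was under 0.05 in 14 of 19 alternatives and that of MYL9 in all 19. MYL12A was lost without CsiRNA replicate 1 (adjusted p = 0.142, limma), CsiRNA replicate 2 (0.113), NEAT1siRNA replicate 1 (0.0770) or NEAT1siRNA replicate 3 (0.158), and without a filter on TPM (0.123). MYL9 still made only 1.05 to 1.35% of the MYL9, MYL12A and MYL12B total in control and 1.89 to 2.42% in silenced cells.

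ACTN1 per 100 ACTN4, its nonmuscle partner, was 57.6, 56.3 and 51.5 in CsiRNA and 44.9, 42.3 and 42.2 in NEAT1siRNA libraries, and the ACTN1 share of the pair went from 34.0 to 36.5% down to 29.7 to 31.0%. VCL per 100 CTNNA1, the vinculin relative alpha-catenin, was 101, 98.2 and 104 in CsiRNA and 74.7, 72.6 and 73.3 in NEAT1siRNA libraries. In both pairs the groups were clearly separated, by -0.35 and -0.46 on the log2 scale, while ACTN4 (log2 fold change -0.06) and CTNNA1 (0.03) did not pass the test. MYH9 per 100 MYH10, the IIB heavy chain, was 812, 806 and 820 against 748, 691 and 695, a smaller separation of -0.19.

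The ratio of TAGLN to TAGLN2 had the opposite sign to the difference of TAGLN itself. TAGLN per 100 TAGLN2 was 5.46, 5.15 and 5.16 in CsiRNA and 4.75, 4.90 and 4.92 in NEAT1siRNA libraries, because TAGLN2 was higher by more (219 ± 3.54 to 266 ± 14.1 TPM, log2 fold change 0.28, adjusted p = 0.0235, limma). The call of TAGLN2 was lost without CsiRNA replicate 1 (adjusted p = 0.0873, limma), CsiRNA replicate 2 (0.114), NEAT1siRNA replicate 1 (0.112) or NEAT1siRNA replicate 3 (0.0674), and without a filter on TPM (0.0595). ACTA2 per 100 ACTB was 0.0354 to 0.0462 in CsiRNA and 0.0477 to 0.0560 in NEAT1siRNA libraries, while ACTB (log2 fold change 0.07) and ACTG1 (-0.13) did not pass. TPM1 per 100 TPM4 overlapped, at 39.3 to 40.9 and 37.2 to 40.5. Each of the 7 ratios was compared with a two-sided exact permutation test, in which the 6 separated pairs had p = 0.1, the smallest that 3 against 3 allows, and the ratio of TPM1 had p = 0.300. None of the 7 could pass 0.05 in this design.

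**Figure D3:**
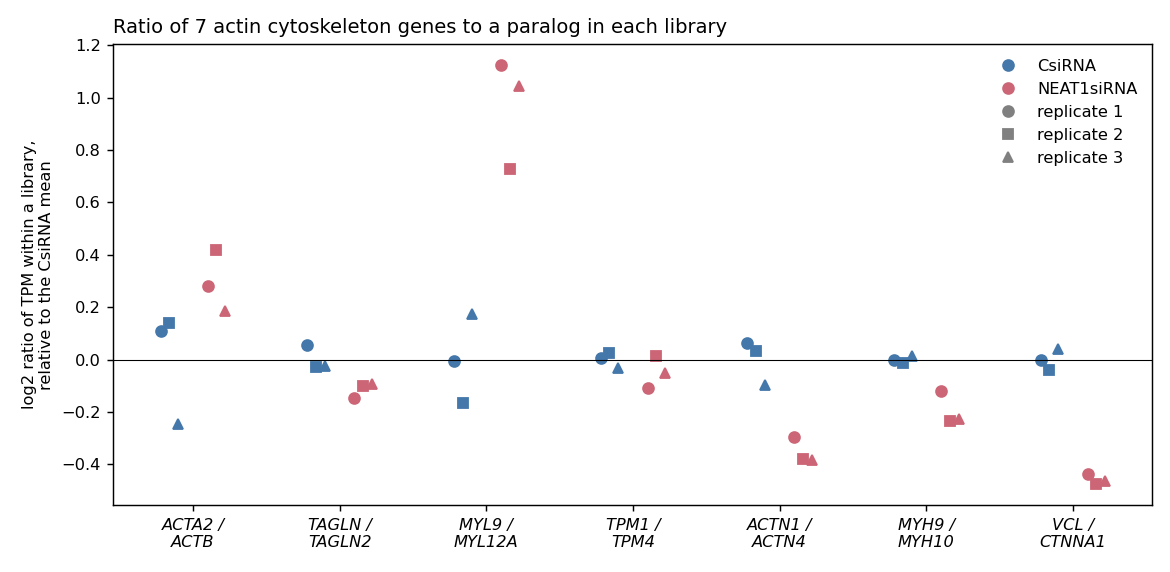
Ratio of the TPM of 7 genes to that of a paralog within 1 library, as log2 relative to the mean of the CsiRNA libraries (vertical axis), with blue points for CsiRNA and red for NEAT1siRNA and 1 point per library. MYL9 to MYL12A is higher in all 3 NEAT1siRNA libraries, VCL to CTNNA1, ACTN1 to ACTN4 and MYH9 to MYH10 are lower in all 3, and TPM1 to TPM4 overlaps.

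The upstream factors were measured beside their targets. SRF was at 11.6, 11.5 and 12.0 TPM in CsiRNA and at 11.4, 9.98 and 10.3 TPM in NEAT1siRNA libraries, MKL1, which encodes MRTF-A, at 6.46 to 7.59 and 7.54 to 8.86 TPM, and MKL2, which encodes MRTF-B, at 5.71 to 7.15 and 6.16 to 7.19 TPM. The SRF values of NEAT1siRNA cells lay below the control range by a small margin, and the values of the MRTF genes overlapped. None passed the test, with log2 fold changes of -0.14 for SRF (adjusted p = 0.368, limma), 0.16 for MKL1 (0.295) and 0.07 for MKL2 (0.708). With GC and length trends removed MKL1 and MKL2 passed as higher, by 0.21 and 0.15 on the log2 scale (adjusted p = 0.00700 and 0.0430, limma), but with the replicate block added only MKL1 did (0.0163, against 0.0535 for MKL2). These 2 fits called 1703 and 1682 of all genes higher, against 535 in the main fit. SCAI, which encodes a repressor of MRTF, had a log2 fold change of -0.03 (adjusted p = 0.871), whose sign changed with scaling, and MYOCD, the muscle-restricted cofactor, was at most 0.0280 TPM. The cofactors are regulated by their location in the cell, which RNA levels do not measure.

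Among the 80 other pathway genes, 62 were tested, of which 13 were lower, 2 were higher and 47 did not pass. Their median was -0.05 on the log2 scale, near the -0.04 of all genes tested. These lists were also chosen with earlier results of these data known, so their counts describe and do not test. The other MRTF and SRF targets had 7 of 16 tested lower and none higher, where 8.98% of all genes tested were lower and 4.99% higher. The largest falls there were in the matricellular genes CYR61 (246 ± 18.1 to 93.2 ± 6.68 TPM, log2 fold change -1.39) and CTGF (175 ± 15.4 to 87.0 ± 6.98 TPM, -1.00), which are also targets of the Hippo effectors YAP and TAZ, and in THBS1 (365 ± 33.8 to 241 ± 12.0 TPM, -0.59), thrombospondin 1. These are secreted proteins rather than parts of the cytoskeleton. The other 4 were named after their values were seen, ITGA5 (-0.43) and ITGB1 (-0.28), the fibronectin receptor subunits, TLN1 (-0.32), the talin that vinculin binds, and SMTN (-0.31), smoothelin. The adjusted p-values of the 7 ran from 9.53e-11 for CYR61 to 0.0371 for SMTN in limma. By position, 7 of the 16 lay wholly below the CsiRNA range and 2 wholly above it, against 19.3% and 11.0% of all genes. The 7 below were not the same 7 genes as those called lower. TLN1 overlapped, at 55.1 TPM in NEAT1siRNA replicate 1 and 54.5 TPM in CsiRNA replicate 2. ZYX, also named after its values were seen, lay below the range but did not pass (log2 fold change -0.24, adjusted p = 0.0768, limma). The 2 above, likewise named after their values were seen, were LIMA1 (log2 fold change 0.26, adjusted p = 0.0661, limma) and WDR1 (0.18, 0.174). CYR61, CTGF, THBS1 and ITGA5 kept an adjusted p under 0.05 in all 19 alternatives, 2 of which are stricter thresholds that reuse the main fit. ITGB1, TLN1 and SMTN did so in 13 to 15 of the 19. All 3 were lost without CsiRNA replicate 1 (adjusted p from 0.150 to 0.222, limma), without NEAT1siRNA replicate 3 (0.200 to 0.233) and without a filter on TPM (0.149 to 0.196). ITGB1 was also lost without CsiRNA replicate 2 (0.0896) or NEAT1siRNA replicate 1 (0.0991), and SMTN without CsiRNA replicate 3 (0.0843).

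Of 12 genes that signal to actin, LIMK1, the kinase that inactivates cofilin, was higher (6.94, 6.61 and 7.09 TPM against 9.87, 9.58 and 8.80 TPM, log2 fold change 0.40, adjusted p = 0.00430, limma). The formin genes DIAPH1 (-0.38) and DIAPH3 (-0.33), whose products build unbranched filaments and which were likewise named after their values were seen, were lower. Both calls were lost without CsiRNA replicate 1 (adjusted p = 0.0602 and 0.114, limma), without NEAT1siRNA replicate 3 (0.0570 and 0.139) and without a filter on TPM (0.0544 and 0.123), and that of DIAPH3 also without CsiRNA replicate 2 (0.0798) or NEAT1siRNA replicate 1 (0.0667). The other 9 did not pass. Of 8 genes of actin monomer binding and turnover, MICAL2, which oxidises actin and promotes MRTF entry into the nucleus, was lower (13.0, 11.9 and 10.9 TPM against 8.17, 8.20 and 7.45 TPM, log2 fold change -0.53, adjusted p = 0.000398, limma) and the other 7 did not pass. Of 7 tested genes of the TCF branch, which joins SRF to growth factor signalling, IER2 was lower (log2 fold change -0.46, adjusted p = 0.00262, limma, and 0.0726 without a filter on TPM) and the other 6, EGR1 (0.03) among them, did not pass. Of the 15 tested paralogs, 2 were lower, MYL12A among them, TAGLN2 was higher and 12 did not pass.

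**Figure D4:**
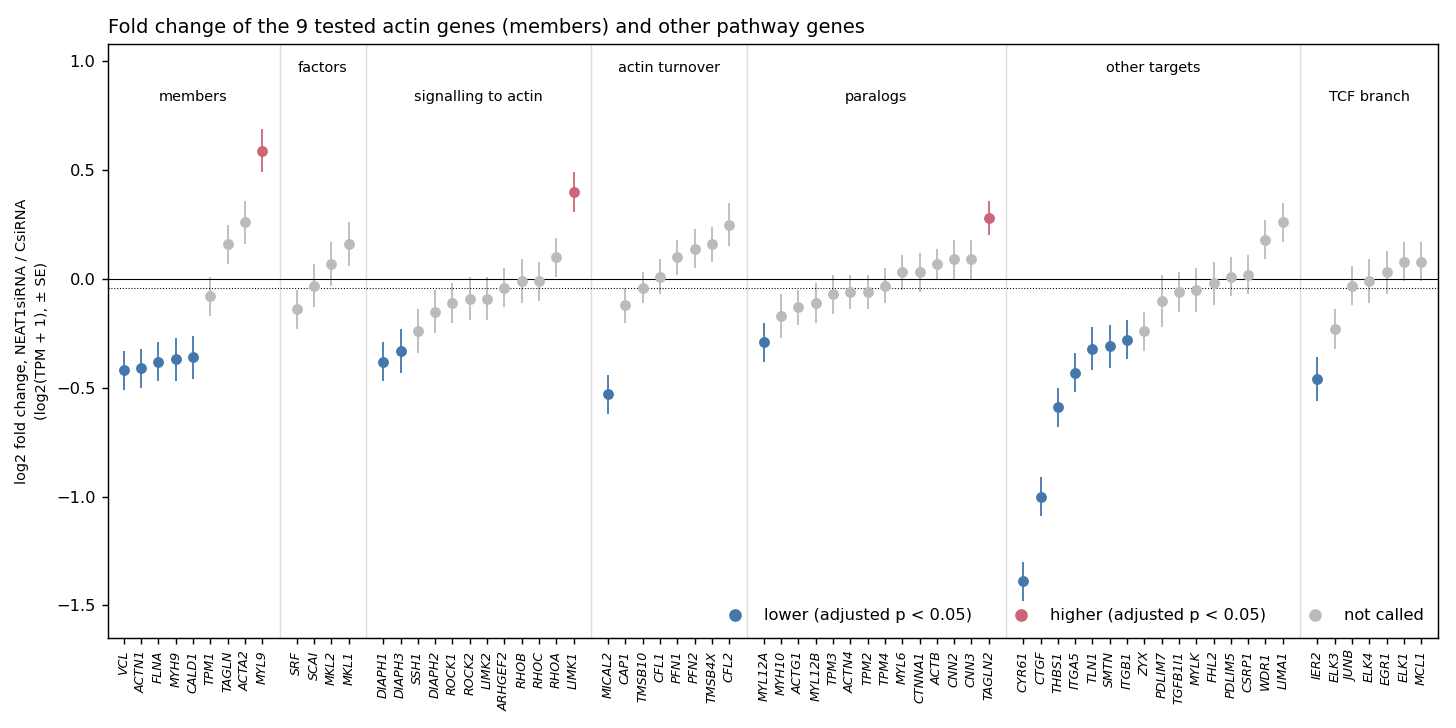
Log2 fold change of NEAT1siRNA over CsiRNA on log2(TPM + 1) with its SE (vertical axis) for the 9 tested genes, at left, and 61 of the 62 tested genes of the rest of the pathway by role, in blue where lower and red where higher at an adjusted p under 0.05, with a dotted line at the median of all genes (-0.04). Of the 9 genes 5 are blue and 1 is red, 7 of 16 other targets are blue and none is red, and the 4 tested factors are grey.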

How the data were processed

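RNA-seq of BT-549 cells was analysed in 6 libraries, 3 with CsiRNA and 3 with NEAT1siRNA. The authors prepared stranded mRNA libraries, aligned reads with STAR to GRCh38 and compared groups with DESeq2. In 1 table the authors deposited TPM per gene and library. In the other, the deposited columns were a mean normalized count (a signal over all libraries), a log2 fold change and its SE, the score of the test, and p-values before and after adjustment. Of these only the mean normalized count was used, to recover reads, which came out whole (within 0.05) for 99.8% of the genes with the lowest means but 18.2% of those with the highest, so voom on these reads served only as an alternative. The authors' comparison columns were not used, and 0 columns of library values were left unmapped.

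Genes with a mean of at least 1 TPM were fitted as log2(TPM + 1) with limma 3.58.1 in R 4.3.3 (lmFit, eBayes with trend, two-sided, Benjamini-Hochberg over 10721 genes, adjusted p under 0.05). Fold changes are on this scale, which understates changes of low genes. The fit was run on simulated reads without the GC and length trends of these libraries, so its error rate on the real values was not measured. Positions, length and GC content came from GENCODE 44 (GRCh38), by current or older symbol for 23061 genes. Named were all 10 genes, NEAT1, the factors, the tested paralogs, and the 5 largest rises and falls past the threshold among the rest of the list. The genes and lists were chosen with earlier results of these data known. A paralog in the list is counted in the totals but not reported here. Alternatives were another pseudocount, filter, scaling, variance model or threshold, removal of GC and length trends, voom on recovered reads, a replicate block, and each library left out. The other thresholds reuse the p-values of the main fit, so an adjusted p under 0.05 there repeats the main result. No 2 libraries agreed within sampling noise, since the chi-square per degree of freedom within groups ran from 4.59 to 14.4. Recovered reads numbered 17244949 to 20342068 in CsiRNA and 15788731 to 20182034 in NEAT1siRNA libraries.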

Additional observations from a re-analysis of the deposited data

How the results depend on the processing

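VCL, ACTN1 and MYL9 had an adjusted p under 0.05 in limma in all 19 alternatives. Of these, 2 are stricter thresholds that reuse the p-values of the main fit, and VCL and ACTN1 did not reach a log2 change of 0.5. None of the 9 tested genes changed direction in any alternative, but ACTA2 was below the filter at a mean of 5 TPM. Calls of CALD1, MYH9 and FLNA rested on the filter and on single libraries, since without a filter on TPM only 2 of the 9 genes were lower (5 pathway genes lower and 1 higher, and 263 and 242 of all genes), where 18531 genes were tested. Leaving out 1 library gave 2 to 5 genes lower and 1 to 1 higher, 6 to 14 pathway genes lower and 1 to 2 higher, 393 to 1586 of all genes lower and 391 to 538 higher, and a NEAT1 log2 fold change from -1.60 to -1.24. The lowest count of lower genes came without CsiRNA replicate 1 (2 of the 9, 6 pathway genes, 393 of all), then without NEAT1siRNA replicate 3 (2, 6 and 422), and the highest, 1586, without NEAT1siRNA replicate 2.

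The number of higher genes rose with other scalings. Of the 9 genes, of the pathway genes and of all genes, the numbers higher were 3, 6 and 1082 with quantile normalization, 3, 6 and 1158 centred on the median, 2, 6 and 917 rescaled without the 4 short RNAs, and 3, 7 and 1244 with voom on recovered reads. With GC and length trends removed they were 3, 14 and 1703, with 1764 of all genes lower. An adjusted p under 0.01 left 3 of the 9 genes lower, 7 pathway genes lower and 1 higher, and 443 and 276 of all genes. A log2 change of at least 0.5 left 0 of the 9 lower, 4 pathway genes lower and 0 higher, and 188 and 126 of all genes. No scaling moved the median of all genes by over 0.1.

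Deviations of libraries with the same replicate number correlated at -0.03, 0.25 and -0.11 across 10721 genes, which did not show a pairing. The GC trend of each library enters these deviations, so the correlations cannot decide whether the cultures were paired. With a replicate block, 5 of the 9 genes were lower and 1 higher, and 1061 and 579 of all genes. With the block and the GC and length trends removed, 3 of the 9, 11 pathway genes and 1682 of all genes were higher and 1709 of all genes lower. NEAT1siRNA replicate 2 correlated best with CsiRNA replicate 2 (0.25), whereas NEAT1siRNA replicate 1 did so with CsiRNA replicate 3 (0.40) and NEAT1siRNA replicate 3 with CsiRNA replicate 2 (0.17).

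Among the genes named, signs changed for SCAI, TPM3, TPM4, MYL6, CTNNA1 and EGR1, of which, with 1 library left out, SCAI ran from -0.10 to 0.04, MYL6 from -0.01 to 0.06, CTNNA1 from -0.02 to 0.09 and EGR1 from -0.06 (without NEAT1siRNA replicate 1, and -0.03 without CsiRNA replicate 2) to 0.12. The log2 fold change of SCAI was 0.01 with quantile normalization and with voom, 0.02 centred on the median, with trends removed (block or not) and without NEAT1siRNA replicate 3, and 0.04 without CsiRNA replicate 1. TPM4 was at 0.02 centred on the median and with voom and at 0.03 with trends removed (block or not), and TPM3 at 0.00122 with trends removed (block or not). Without CsiRNA replicate 3, MYL6 was at -0.01 and CTNNA1 at -0.02, and CTNNA1 was at -0.00460 without NEAT1siRNA replicate 2. The cause of these changes was not tested. Read depth limits CNN1, ACTA2 and MYL9 most.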
